A study of Drosophila melanogaster with 33 samples.

Results

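Adenosine-to-inosine RNA editing was examined at every listed site of the photoreceptor genes rdgA, norpA, rdgB and Cpn in heads of Drosophila melanogaster. The sites were taken by gene symbol from a table of 1350 edited sites in 395 gene entries, and 32 sites carried one of the 4 symbols. Of these, 26 lay in rdgA (CG34344), 3 in norpA (CG3620), 2 in rdgB (CG11111) and 1 in Cpn (CG4795). The first 3 genes lie on the X chromosome and Cpn lies on chromosome 3R.

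ADAR deaminates adenosines in double-stranded RNA to inosine, which sequencing reads as guanosine. In fly photoreceptors, light-activated rhodopsin signals through a G protein to the phospholipase C encoded by norpA, which cleaves the membrane lipid PIP2 and so leads to the opening of the TRP and TRPL channels. The diacylglycerol made in this step is removed by the diacylglycerol kinase encoded by rdgA, and the phosphatidylinositol transfer protein encoded by rdgB takes part in rebuilding PIP2. Loss of rdgA or rdgB causes retinal degeneration, which gave both genes their names. Cpn encodes calphotin, a calcium-binding protein of photoreceptors.

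Nascent RNA, which is still bound to chromatin during transcription, came from male heads of 3 strains with 2 libraries each, made from 40 to 45 heads per library. ADAR0 males lack the editing enzyme, FM7a males carry a balancer X chromosome and were a control with ADAR, and yw males (yellow white) were a further control. Polyadenylated mRNA was sequenced in 2 yw libraries and 12 Canton S libraries. A larger preparation of yw nascent RNA, of unstated sex, was sampled at 6 times of a 12 h light and 12 h dark cycle in 2 replicate sets of 6 libraries each, and yw genomic DNA was sequenced in 1 library. All flies were given as 3 to 4 days old and were kept in the light:dark cycle.

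An editing level gives, in percent, how many of the reads over a site carried the edited base, after the authors had pooled the libraries of a group. The replicate sets of light:dark nascent RNA were the sole replicate measure, with an SD of 4.61 percentage points for a level over all 1350 sites. Set 1 alone was depleted of rRNA, so this spread holds that difference too. The 32 sites of the 4 genes were covered by 18 to 65 genomic DNA reads, and the read depth behind the RNA levels is unknown. Sites at 0 are therefore described as listed at 0, and the pooled male and mRNA levels allowed no test between groups. In whole heads, a lower level in every cell cannot be told apart from editing in fewer of the cells that transcribe a gene. The table holds no expression levels, so the head tissue was not checked against marker genes.

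The 4 genes differed in the part of the gene that was edited. All 26 sites of rdgA were intronic. In norpA 2 sites were intronic and 1 was exonic, and the sites of rdgB and Cpn were all exonic. Cpn alone had an mRNA level. By median nascent level over the 12 light:dark libraries, the order was Cpn at 36% (1 site), rdgA at 18% (26 sites), rdgB at 12% (2 sites) and norpA at 10% (3 sites). The medians of rdgB and norpA differed by less than the SD between sets, and the range of rdgA, 6% to 60%, took in the levels of all 6 other sites. Over the whole table the median was 21%, with a range of 4% to 95%. In yw males the order was another, with medians of 24.5% in rdgA, 13% in norpA, 3% in rdgB and 0% in Cpn.

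The rdgA sites were spread over 98.3 kb of the X chromosome, from position 8818718 to position 8916975 in dm3, and no site of another gene entry lay between them. Whether positions count from 0 or 1 is not stated. Sites lay close together at both ends of this span and were single in its middle. When sites no more than 1000 bases apart were joined, 11 stretches resulted, 6 of which held 1 site. The widest gap was 45379 bases, and the median gap was 80 bases. Of the 26 sites, 17 had another rdgA site within 50 bases, or 65.4%. Over all 1350 sites 44.6% had such a neighbour in their own gene entry, and of the 361 other intronic sites in genes with 10 or more sites 59.3% did. The 17 sites with a near neighbour had a median nascent level of 18% and the 9 sites without had a median of 16%.

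**Figure D1:**
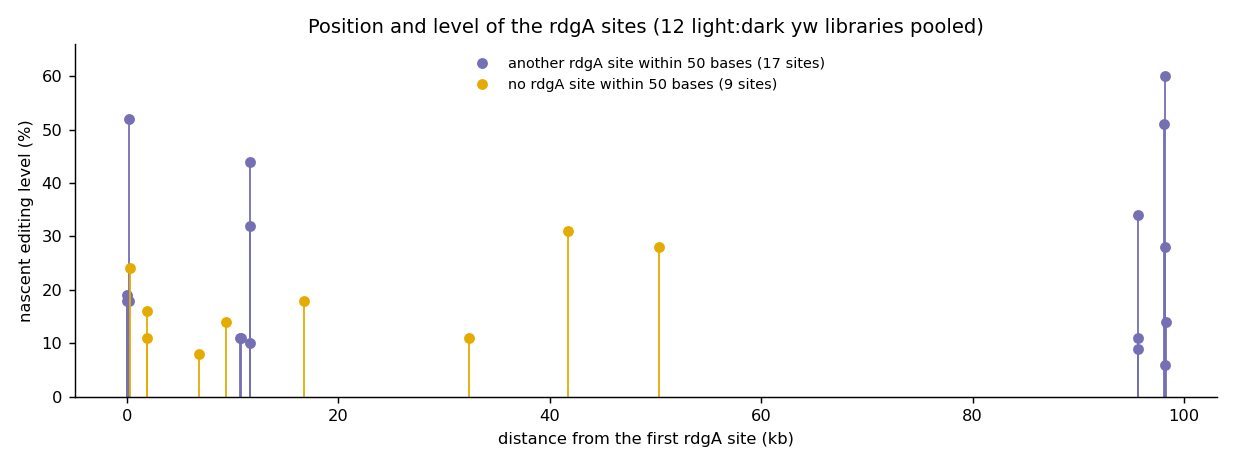
Nascent editing level (percent, vertical axis) of each rdgA site against its distance from the first site (kb, horizontal axis), from 12 pooled light:dark yw libraries. Purple points have another rdgA site within 50 bases (17 sites, 6% to 60%) and yellow points have none (9 sites, 8% to 31%).

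Levels differed widely between sites a few bases apart. In 3 sites that spanned 8 bases, the middle site at 8830364 was at 44% and 43% in sets 1 and 2. Its neighbours at 8830360 and 8830367 were at 34% and 30%, and at 11% and 10%. The gaps between these 3 sites were larger than the spread between sets. By contrast, the sites at 8818718 and 8818719 are adjacent bases and had 25% and 13%, and 25% and 15%, in sets 1 and 2, so they differed from each other by less than the sets differed at either site.

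The most sites in any 100 bases were the 4 between 8916902 and 8916975, which included the highest and the lowest of the gene. The site at 8916902 had 58% and 61% in sets 1 and 2, which was the highest level in rdgA. The site at 8916968, at 11% and 3%, was the lowest by its level of 6% over all 12 libraries. Between them, 8916964 was at 31% and 26%, and beyond them 8916975 was at 13% and 15%. The range of levels in this window, 6% to 60%, was thus the range of the whole gene.

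Replicate sets of rdgA sat close together. Over the 26 sites the paired sets gave an SD of 3.49 points per level, and the widest difference was 12 points, at 8818718. Set 1 was higher at 16 sites, lower at 8 and equal at 2. Over all sites of the table, set 1 was higher at 771, lower at 459 and equal at 120. The median size of the difference between sets was 2.5 points in rdgA and 4 points over all sites. At X-linked intronic sites of other genes this median was 3 points. The widest difference over all sites was 37 points, which was taken over far more sites than that of rdgA. Levels of set 1 and set 2 followed each other across the 26 sites (Pearson's r = 0.953, Spearman's rho = 0.930), as a description of sites that share their libraries. The authors also deposited, for each site, the 5th percentile over the 12 single libraries, which was in the median 45.5% of the pooled level for rdgA and 43.5% for all sites. It was 47% at 8916902, 39% at 8916868 and 38% at 8818902, the 3 most edited sites. It was 0% at 8851053 and 8914417.

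In ADAR0 males, rdgA showed almost no reads with the edited base. The level was 0% at 24 of 26 sites (92.3%), where 88.1% of all sites with a level were listed at 0. The exceptions were 8916902 at 2% and 8820642 at 1%. ADAR0 males were below FM7a males at 21 of 26 rdgA sites, or 80.8%, against 79.6% of all sites, so this share was near that of the table. The median difference was -10 points in rdgA and -11 points over all sites. The other 5 sites were listed at 0 in both strains, so at them this pair of strains says nothing about ADAR. Set against yw males, ADAR0 males were lower at 24 rdgA sites (92.3%), with 86.7% of all sites lower. The median of this difference was -24.5 points in rdgA and -15 points over all sites. The other 2 rdgA sites, 8914398 and 8914411, were at 0 in all male pools.

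FM7a males had lower rdgA levels than yw males. The median over the 26 sites was 10% in FM7a males and 24.5% in yw males, while over all sites it was 11% in FM7a males and 15% in yw males. FM7a was lower at 19 of 26 sites (73.1%), equal at 2 and higher at 5, with 57.9% of all sites lower. It was at least 10 points lower at 15 of 26 sites (57.7%), with 25.3% of all sites so. The median difference was -10.5 points in rdgA and -2 points over the whole table, and each strain has 1 pooled level, so the difference carries no test.

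**Figure D2:**
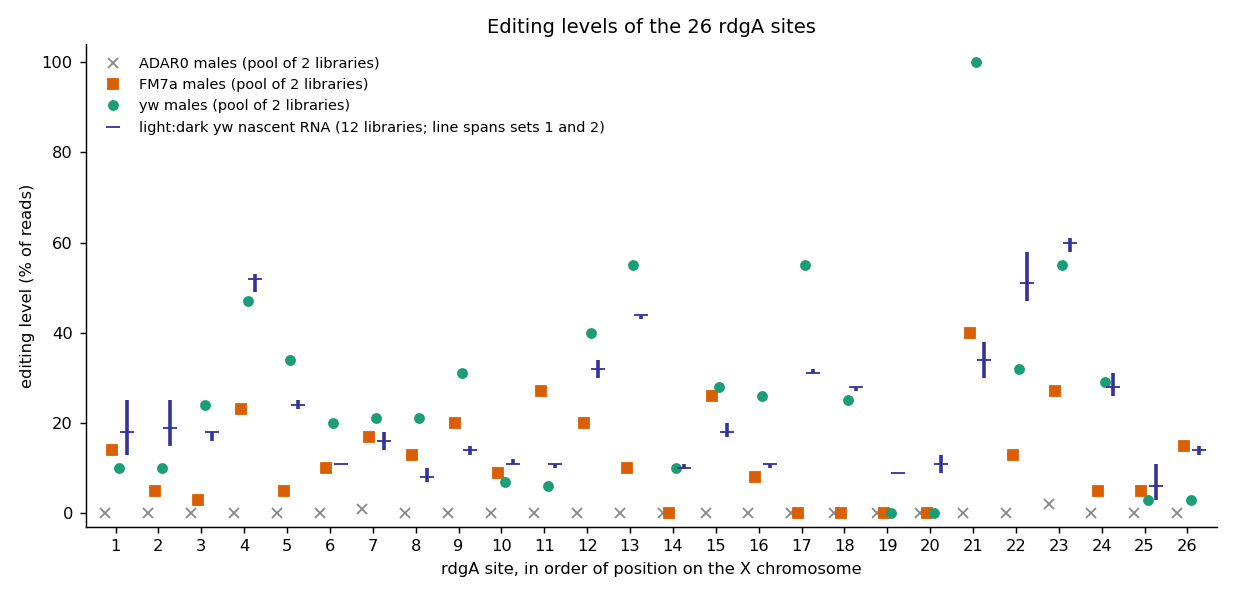
Editing levels (percent, vertical axis) of the 26 rdgA sites in order of position (horizontal axis) in ADAR0, FM7a and yw males and in light:dark yw nascent RNA, where the vertical line spans replicate sets 1 and 2. ADAR0 males lie at 0% to 2%, and FM7a males lie below yw males at 19 of the 26 sites.

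The more edited sites of rdgA showed the lower FM7a level most regularly. At the 10 sites of 20% or more in light:dark nascent RNA, a split chosen after the values were seen, FM7a males were below yw males at 10 of 10, with a median difference of -26.5 points. Of all sites at 20% or more, 58.7% were lower in FM7a, with a median difference of -3 points. At the 16 rdgA sites under 20%, FM7a was lower at 9, with a median difference of -3 points. Of all sites under 20%, 57.1% were lower, with a median difference of -2 points.

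Single sites show the size of these differences. The site at 8916902 was at 2% in ADAR0 males, 27% in FM7a males and 55% in yw males. At 8818902 the levels were 0% in ADAR0 males, 23% in FM7a males and 47% in yw males, with 49% and 53% in the light:dark sets. At 8916868 they were 0% in ADAR0 males, 13% in FM7a males and 32% in yw males, with 58% and 47% in the light:dark sets. Males of yw thus lay just below or well below the light:dark sets of the same strain at these 3 sites, and FM7a males lay below yw males at each. The site at 8830364 was at 0% in ADAR0 males, 10% in FM7a males and 55% in yw males. The largest of the differences with FM7a at 0% was at 8860450, with 0% in ADAR0 males, 0% in FM7a males and 55% in yw males, against 32% and 31% in the light:dark sets. Here yw males were higher than both sets of their own strain.

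The site at 8914417 stood apart from the others. It was at 0% in ADAR0 males, 40% in FM7a males and 100% in yw males, against 30% and 38% in the light:dark sets. It is the only rdgA site listed at 100% in any pool, its 5th percentile over the 12 light:dark libraries was 0%, and it was seen in all 4 control male libraries. Its neighbours 8914411 and 8914398, within 20 bases, were listed at 0% in ADAR0, FM7a and yw males, against 13% and 9% and against 9% and 9% in the light:dark sets. Without 8914417, the median FM7a difference of rdgA was -10 points.

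FM7a exceeded yw at 5 rdgA sites, all of them under 20% in light:dark nascent RNA. The widest was at 8829455, with 0% in ADAR0 males, 27% in FM7a males and 6% in yw males, against 11% and 10% in the light:dark sets. At 8829453, 2 bases away, the levels were 0%, 9% and 7% in ADAR0, FM7a and yw males. FM7a was thus higher at both neighbours, by 21 points at the first and by 2 points at the second.

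The 5 least edited rdgA sites by light:dark nascent level were mixed in males. Besides 8916968, 8914398 and 8830367 they were 8825542 and 8820562, of which the last tied at 11% with 4 others. At 8825542 the level was 0% in ADAR0 males, 13% in FM7a males and 21% in yw males, against 10% and 7% in the light:dark sets. At 8820562 it was 0% in ADAR0 males, 10% in FM7a males and 20% in yw males, against 11% and 11%. At both, yw males were above both sets. At 8830367 the male levels were 0% in ADAR0, 0% in FM7a and 10% in yw, against 11% and 10%, and at 8916968 they were 0% in ADAR0, 5% in FM7a and 3% in yw.

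The yw males and the light:dark flies share a strain but differ in scale of preparation and sequencer, and sex is stated for the males alone, so these cannot be told apart here. In rdgA, yw males were above both light:dark sets at 12 of 26 sites (with 20.7% of all sites above), below both at 11 (with 62.6% of all sites below) and between them at 3. The median difference of yw males from the light:dark level was 0.5 points in rdgA and -5 points over all sites. For FM7a males the same difference was -9.5 points in rdgA and -8 points over all sites. Set against the light:dark flies, yw males thus lay further from the figure for all sites than FM7a males did. By position, yw males were above both sets at 10 of the 14 sites from 8818960 to 8869019, at 1 of the 4 sites before them and at 1 of the 8 sites after them. This division was chosen after the values were seen.

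Across the 26 rdgA sites, levels in yw males followed the light:dark levels with Pearson's r = 0.692 (0.797 without 8914417) and levels in FM7a males with r = 0.356 (0.328 without it). These are descriptions over sites that share libraries.

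Since rdgA, norpA and rdgB lie on the X chromosome and FM7a is a version of that chromosome, other X-linked sites were set beside them. At the 267 X-linked sites of other genes with both levels, FM7a was lower at 57.7%, with a median difference of -2 points, and at the 1038 sites off the X it was lower at 57.4%, also with a median of -2 points. At the X-linked intronic sites of other genes the median difference was -1.5 points, with median levels of 5% in FM7a males and 10% in yw males. Sites listed at 0 were more frequent on the X in both strains. Of the X-linked sites of other genes, 27.6% were at 0 in FM7a males and 15.6% in yw males, and of the sites off the X, 16.4% were at 0 in FM7a males and 11.4% in yw males. At X-linked intronic sites of other genes these shares were 40.6% in FM7a males and 23.1% in yw males, and in rdgA they were 19.2% in FM7a males and 7.69% in yw males. The part of the FM7a chromosome in the rdgA difference was not tested. Genomic DNA was from yw alone, and whether the rdgA sequence differs between the strains was not tested.

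Among the 32 gene entries with 10 or more sites, rdgA had the second lowest median FM7a difference. The lowest was -13 points in pan (11 sites, chromosome 4), and the next were -9 points in PMCA and in CG40178. By the share of sites lower in FM7a, rdgA ranked 8 of 32. Other X-linked genes of this size had medians of -7 points for Ca-alpha1T, -3.5 for eag, -3 for cac and Sh, and -0.5 for para. The ranks are descriptions, since the genes have different numbers of sites and share the same 2 pools.

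**Figure D3:**
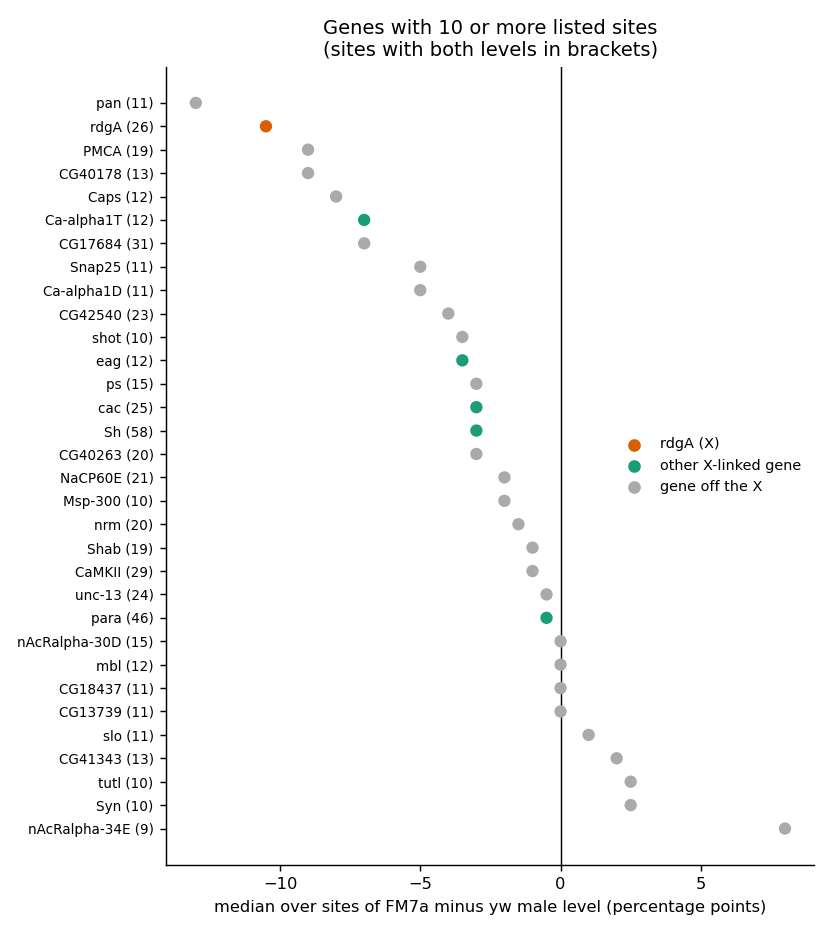
Median over sites of the FM7a level minus the yw male level (percentage points, horizontal axis) for each of the 32 gene entries with 10 or more listed sites. The rdgA point (orange) lies at -10.5, below the other X-linked genes (green, -7 to -0.5).

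Of the 26 rdgA sites, 8 were seen in all 4 control male libraries (30.8%), with 45.1% of all sites and 32.4% of the other intronic sites seen so. These 8 sites had a median of 21.5% in FM7a males and 29.5% in yw males, and the other 18 had 5% in FM7a males and 17% in yw males. The 8 sites were set apart by those same male libraries, so their higher male levels follow from the choice. The light:dark levels of the 8 and the 18 sites were alike, with medians of 17% and 18%. None of the 6 sites in norpA, rdgB and Cpn was seen in all 4 libraries.

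In norpA, the gene of the phospholipase, the 2 intronic sites are adjacent bases at positions 4227270 and 4227271 of the X chromosome. The first was at 0% in ADAR0 males, 0% in FM7a males and 13% in yw males, against 10% and 9% in the light:dark sets. The second was at 0% in ADAR0 males, 0% in FM7a males and 13% in yw males, against 15% and 15%. Both were thus edited at like levels in the yw pools and listed at 0 in FM7a, so that ADAR0 and FM7a males could not be told apart at them.

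The exonic norpA site, at position 4253674, was high in the flies without ADAR. It was at 100% in ADAR0 males, 0% in FM7a males and 1% in yw males, against 5% and 7% in the light:dark sets. It was the only one of the 32 sites at 10% or more in ADAR0 males, a level reached by 1.27% of all sites with an ADAR0 level. The next highest ADAR0 level among the 32 was 5%. The site is therefore doubtful as a site of ADAR editing, and without it the median light:dark level of norpA was 12.5%. Genomic DNA was sequenced from yw alone and not from ADAR0 flies.

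In rdgB, the gene of the lipid transfer protein, both sites were exonic and low. The site at 13663294 was at 0% in ADAR0 males, 0% in FM7a males and 2% in yw males, against 8% and 19% in the light:dark sets. The site at 13667515 was at 5% in ADAR0 males, 3% in FM7a males and 4% in yw males, against 8% and 14%. At the second site the ADAR0 level was above both male control levels, and at both sites set 2 was higher, by 11 and 6 points. The sites lie 4221 bases apart.

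**Figure D4:**
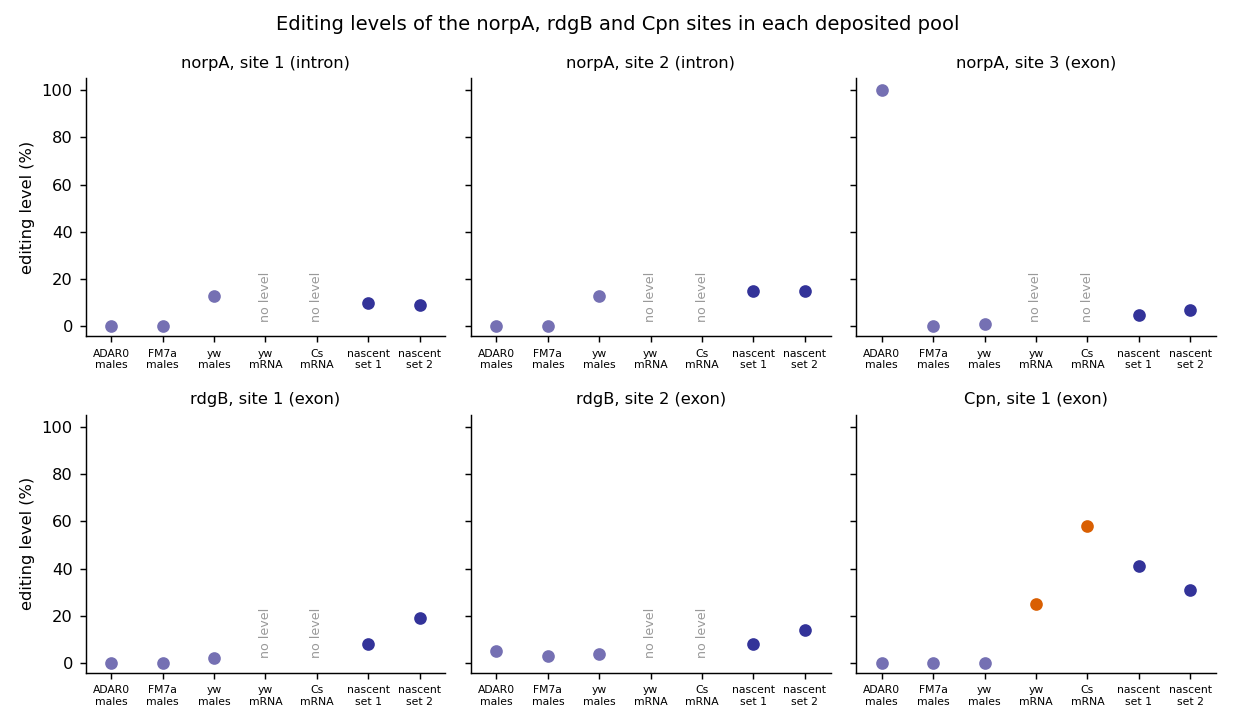
Editing level (percent, vertical axis) of each norpA, rdgB and Cpn site in the pools of ADAR0, FM7a and yw males, of yw and Canton S (Cs) mRNA and of light:dark nascent sets 1 and 2 (horizontal axis). The norpA exonic site is at 100% in ADAR0 males, and the Cpn site is at 25% and 58% in the mRNA pools and at 0% in all males.

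Cpn held 1 exonic site, at position 7990069 of chromosome 3R. In light:dark nascent RNA it was the most edited of the 6 sites outside rdgA. Its mRNA level was 25% in the yw pool and 58% in the Canton S pool, against 41% and 31% in the light:dark nascent sets. The yw mRNA level was thus below both nascent sets, by 11 points from their pooled level of 36%, and the Canton S level was above both, by 22 points. Of the 257 sites with mRNA levels, 6.23% were placed in this way. The difference of yw from Canton S mRNA, -33 points, was exceeded downward at 1 of the 257 sites, and the median size of that difference was 7 points. Each mRNA level is 1 pool, so this difference was not tested. The yw pool held 2 libraries, sampled at hours 2 and 14 of the light:dark cycle. The Canton S pool held 12 libraries, sampled at hours 0, 4, 8, 12, 16 and 20. Strain, sampling time and number of libraries thus cannot be told apart. Genomic DNA was from yw alone, and whether the Cpn sequence differs between the strains was not tested.

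In males the Cpn site was listed at 0% in ADAR0, FM7a and yw alike. Of the 257 sites with mRNA levels, 2 were at 0% in both FM7a and yw males, this one and a site of oc. The yw males thus differed from the light:dark flies of their own strain by -36 points at Cpn, and the ADAR0 pool gave no measure of ADAR dependence there. The 5th percentile over the 12 light:dark libraries was 9%.

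**Figure D5:**
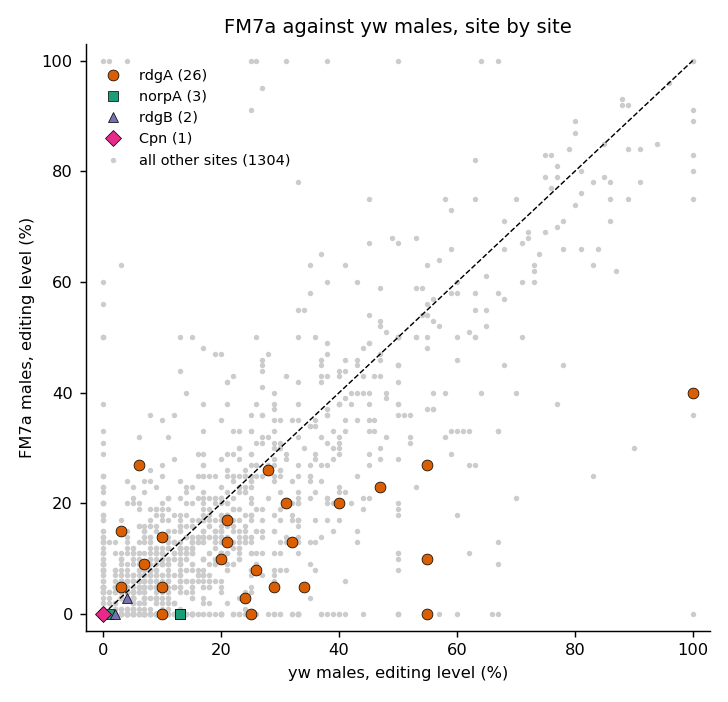
Level in FM7a males (percent, vertical axis) against level in yw males (percent, horizontal axis) for each site, with the sites of rdgA, norpA, rdgB and Cpn in colour and the other sites in grey. On the dashed line the strains have equal levels, and 19 of the 26 rdgA points lie below it.

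Of 42 genes on a list of phototransduction and photoreceptor genes, 11 had listed sites, 54 in all, and 7 of these were other than the 4 genes described. Those 4 genes, all with listed sites, were put on the list and so raise this count. The share of all fly genes with listed sites was not computed, so the count is not read as high or low. The highest median on the list was 62% in prom, which encodes prominin and acts in separating the light-sensing membranes, with 2 exonic sites at 60% and 64%. The receptor kinase gene Gprk1 had 7 intronic sites at 17% to 67%, with a median of 38%. The sodium-calcium exchanger gene Calx had 5 exonic sites with a median of 29%, and stops had 3 intronic sites with 28%. The G protein gamma subunit gene Ggamma30A had 2 intronic sites with 23.5%. These medians, from light:dark nascent RNA, lay above that of rdgA. In yw males the median of rdgA was 24.5%, below prom at 47% and Ggamma30A at 30.5%. It was above Gprk1 at 17% and stops at 4%, and differed from Calx at 24% by less than the SD between sets. In light:dark nascent RNA the channel genes were low, with 8% over 2 intronic sites of trpl and 5% at the exonic site of trp. The ADAR0 level of the trp site was 3%. No site was listed for the rhodopsin genes ninaE and Rh2 to Rh6, the arrestin genes Arr1 and Arr2, inaC or inaD. Of the 54 sites on this list, rdgA held 26.

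Genes were ranked by how close their median levels in light:dark sets 1 and 2 and in yw, FM7a and ADAR0 males came to those of each of the 4 genes (Euclidean distance in percentage points over these 5 pools). Among 31 other entries with 10 or more sites, PMCA was nearest to rdgA at 6.1 points, then Snap25 at 6.34 and para at 9.07. Among 185 others with 2 or more sites, Doa at 4.03 points, trpl at 4.85 and CG5830 at 5.41 were nearest to norpA. Nearest to rdgB were CG42784 at 5.27 points, CG18210 at 6.78 and Sin3A at 8.19. Cpn had no near entry, with MRP at 15.8 points the closest of 389, then kst at 16.3 and CG9801 at 16.4.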

How the data were processed

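Per the file headers, the authors deposited editing levels as a fraction of the reads at a site, taken after pooling the libraries of a group and rounded to hundredths. They were multiplied by 100 here. The deposited genomic DNA coverage is a read count. Per the submitters' processing notes, the build was dm3 and the tools were TopHat and CASAVA 1.6, or 1.8 for the male libraries. The method of calling sites is not given in the sources used.

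Sites were taken by symbol and summarised with pandas 2.3.3 and numpy 2.4.6. The functions were checked on simulated sites. No test was run, because pooled levels leave 1 value per group and sites of a gene are not replicates. Comparisons give levels, medians and numbers of sites higher or lower, beside the same over all sites. An ADAR0 level of 10% or more marked a doubtful site. The planned comparison of rdgA exons with introns had no exonic site.

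All sites of norpA, rdgB and Cpn were named, and of rdgA the 5 highest and 5 lowest in nascent RNA and the densest 100 bases. Sites named besides these were chosen after their values were seen. The genes and lists were chosen with earlier results of these data known. The photoreceptor list was matched by symbol or synonym in the RefSeq table of Release 6.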

Additional observations from a re-analysis of the deposited data

Results flagged for a closer look

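The Cpn site at position 7990069 drew attention because yw mRNA was below both nascent sets and Canton S mRNA was above both, with a difference of -33 points between yw and Canton S mRNA. The difference was not tested.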

How the results depend on the processing

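Of 51 alternative values, 37 kept their sign and moved by less than the SD between sets of 4.61 points, or for counts by less than 1.5 times. Some of the 37 could not move. With 1 site in Cpn and 2 sites in rdgB, the mean equals the median. In rdgA, rdgB and Cpn no site was at 10% or more in ADAR0 males, so leaving out such sites changed nothing. As a mean, the rdgA nascent level was 22.7%, and the norpA difference of ADAR0 from FM7a males was 33.3 points in place of 0. With yw in place of FM7a males, the ADAR0 difference was -24.5 points for rdgA, -13 for norpA and -0.5 for rdgB, whose difference from FM7a was 1. With the light:dark level in place of yw males, the FM7a difference was -10.5 points for rdgB and -36 for Cpn. The Cpn nascent level was 31% or 41% with either set left out. Its mRNA excess over nascent RNA, 5.5 points for the mean of both mRNA pools, was -11 with yw mRNA alone, 22 with Canton S mRNA alone and 0.5 to 10.5 with either nascent set left out. At a limit of 5% in ADAR0 males, 2 sites were doubtful in place of 1, the second in rdgB. The cause of these changes was not tested. Leaving out 8914417 was added after seeing the data.

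Exon levels of rdgA, mRNA differences of rdgA, norpA and rdgB, and limits that left no site gave no value. No paired analysis was possible because the deposited male and mRNA levels are pools with no replicate of their own. The unknown read depth limits all levels.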
